A study of Danio rerio with 6 samples.

Results

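The genes of heme synthesis and of the red cell membrane were examined in zebrafish that carry a mutant form of Pikfyve, the lipid kinase of late endosomes and lysosomes. The genes are 10 of the 25645 in the deposited expression table, chosen by symbol. They are alas2, alad, hmbsb, uros, urod, cpox, ppox and fech, which encode enzymes of heme synthesis, and slc4a1a and epb41b, which encode proteins of the red cell membrane. All 10 passed the filter on low counts. RNA was sequenced from 3 samples homozygous for pikfyve-delta8 and from 3 wild-type samples. The mutant allele was made with CRISPR/Cas9 and is described as deficient in the kinase domain. Tissue and age are not stated in the labels, and neither is whether samples of a genotype came from separate animals. The p-values therefore cover only the variation among these samples, part of which may be technical.

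Heme is an iron-containing ring that carries oxygen in hemoglobin and electrons in cytochromes. Its synthesis begins in the mitochondrion, passes through the cytosol and ends in the mitochondrion, where iron is inserted. Developing red cells make far more heme than other cells and use their own form of the entry enzyme, encoded by alas2, whereas most other cells use alas1. The red cell membrane is held by a spectrin network that is tied to the anion exchanger band 3 and to protein 4.1. Zebrafish screens for pale or anemic embryos found mutations in several of these genes, among them alas2 (sauternes), urod (yquem), ppox (montalcino), slc4a1a (retsina) and epb41b (merlot and chablis).

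The mutants had lower transcript levels of 9 of the 10 genes, and the level of cpox was higher. Transcripts of slc4a1a fell the furthest among the 10, to 19.3% of the wild-type level, followed by fech at 33.4%, hmbsb at 40.8% and alad at 47.5%. The other 5 that fell stood at 56.9% to 71.4%. The median log2 fold change of the 10 genes was -0.78, against 0.0039 over the 21104 genes tested. The differences were tested with edgeR's quasi-likelihood test and Benjamini-Hochberg adjustment over these genes, with a threshold of 0.05 on adjusted p. Under that test 23.0% of all tested genes were lower and 25.1% higher in the mutants, and 5.77% were lower by at least 2-fold, as were 4 of the 10. At least 2-fold higher were 7.43% of all tested genes and 0 of the 10. After TMM scaling, mutant samples all lay below wild-type samples for 9 of the 10 genes and for 28.7% of all tested genes. They all lay above for cpox, narrowly and not on the FPKM scale, and for 30.1% of all tested genes (58.8% in either direction). With library size alone in place of TMM, 3824 genes were higher and 6561 lower, against 5295 and 4845, and the median of all genes moved to -0.14. The count of 9 lower genes was the same under all 16 alternatives tried. Fewer cells of a type and less RNA per cell cannot be told apart in these samples.

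Levels of a single gene are given as CPM (counts relative to the TMM-scaled library size), and fold changes as log2 of pikfyve-delta8 over wild type ± SE. Totals were 14677252 to 14949605 estimated counts per sample, so that 1 count corresponded to 0.0635 to 0.0728 CPM. Across genes, which are no independent replicates, Pearson's r between samples on the log2 CPM scale was 0.971 to 0.976 within the mutants, 0.989 to 0.990 within wild type and 0.917 to 0.931 between genotypes. The gene pikfyve itself had 66.0 ± 6.66 CPM in the mutants and 54.2 ± 2.27 CPM in wild type (SD, n = 3 each, edgeR adjusted p = 0.0209), so its transcript level does not check the genotype labels. All 10 genes had whole-number counts in every sample, with no fraction of the kind left where reads are divided between genes.

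**Figure D1:**
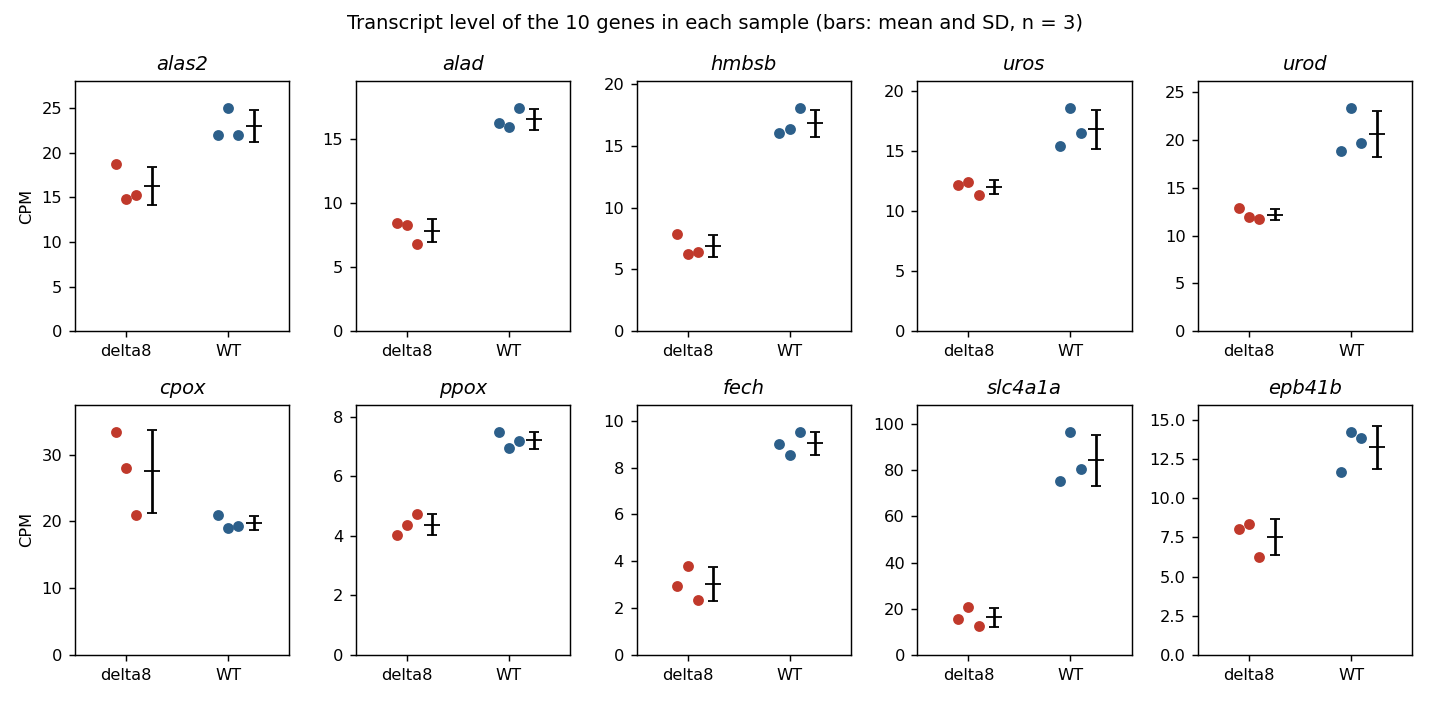
Transcript level (CPM, linear axes from 0) of each of the 10 genes in 3 pikfyve-delta8 and 3 wild-type samples. Points are samples and the bars beside them are the mean and SD. The mutant points lie below the wild-type points in 9 panels, and in the cpox panel the lowest mutant point, 21.0 CPM, lies next to the highest wild-type point, 20.9 CPM.

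The entry enzyme of the red cell pathway, 5-aminolevulinate synthase, is encoded by alas2 (NCBI Gene ID 64607). Its transcripts stood at 18.7, 14.8 and 15.3 CPM in the mutants, against 21.9, 25 and 22.0 CPM in wild type. No mutant sample reached the lowest wild-type sample. The log2 fold change was -0.50 ± 0.12 (edgeR, adjusted p = 0.00665), which made alas2 and uros the least reduced of the 9 genes that fell. The next enzyme, the porphobilinogen synthase encoded by alad, had 8.47, 8.30 and 6.78 CPM in the mutants, against 16.2, 15.9 and 17.4 CPM in wild type. Its log2 fold change was -1.07 ± 0.12 (edgeR, adjusted p = 0.000101), and the genotypes were separated by a wide gap.

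Porphobilinogen deaminase joins pyrrole units into a linear chain and is encoded by hmbsb and hmbsa in zebrafish. Transcripts of hmbsb were at 7.90, 6.26 and 6.44 CPM in the mutants and at 16.0, 16.4 and 18.1 CPM in wild type, a log2 fold change of -1.29 ± 0.13 (edgeR, adjusted p = 4.51e-05). Both genotypes were tight and far apart. The chain is closed into a ring by uroporphyrinogen III synthase, encoded by uros. It had 12.2, 12.4 and 11.4 CPM in the mutants, against 15.4, 18.6 and 16.5 CPM in wild type, with a log2 fold change of -0.49 ± 0.11 (edgeR, adjusted p = 0.00555). The mutant samples were closer to each other than the wild-type samples were.

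The last enzyme of the cytosolic steps, uroporphyrinogen decarboxylase, is encoded by urod. Its transcripts were at 12.9, 11.9 and 11.8 CPM in the mutants, against 18.9, 23.4 and 19.7 CPM in wild type (log2 fold change -0.76 ± 0.12, edgeR adjusted p = 0.000557). Wild type replicate 2 was the highest sample for urod, uros and alas2 alike. Without that sample the log2 fold changes were -0.66 for urod and -0.41 for uros, and both calls stood (edgeR, adjusted p = 0.00423 and 0.0344).

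Coproporphyrinogen oxidase, encoded by cpox, acts between the mitochondrial membranes. It was the exception, with 33.5, 28.0 and 21.0 CPM in the mutants, against 20.9, 19.0 and 19.3 CPM in wild type. The mutants spread over a wider range than the wild-type samples, and the genotypes were separated only narrowly in TMM-scaled CPM. On the FPKM scale they overlapped, with 12.42 in the lowest mutant sample and 13.31 in the highest wild-type sample. The log2 fold change was 0.47 ± 0.15 (edgeR, adjusted p = 0.0291). Adjusted p spanned 0.000504 to 0.106 over 16 alternatives, and the call was lost under 8 of them. Those 8 were library size alone (log2 fold change 0.32, adjusted p = 0.0889), log2(FPKM + 1) (0.29, adjusted p = 0.104), log2(FPKM + 0.1) (0.30, adjusted p = 0.106) and the removal of any of 5 samples. Removing pikfyve-delta8 replicate 1 gave a log2 fold change of 0.31 (adjusted p = 0.0871), and removing replicate 2 of the mutants gave 0.46 (adjusted p = 0.0599). Without wild type replicate 1, 2 or 3 the adjusted p was 0.0642, 0.0996 or 0.0947. The call stood without pikfyve-delta8 replicate 3, the lowest mutant sample, at a log2 fold change of 0.62. Whether cpox was called higher thus depended on the samples, the scaling and the unit used.

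The last pair of steps takes place at the inner mitochondrial membrane. Protoporphyrinogen oxidase, encoded by ppox, had 4.02, 4.37 and 4.73 CPM in the mutants, against 7.5, 6.93 and 7.17 CPM in wild type. Its log2 fold change was -0.72 ± 0.14 (edgeR, adjusted p = 0.00262). Ferrochelatase, the enzyme that inserts iron, is encoded by fech and had 2.94, 3.79 and 2.33 CPM in the mutants, against 9.02, 8.55 and 9.54 CPM in wild type. The highest mutant sample had less than the lowest wild-type sample by a wide margin. The fall of fech, -1.58 ± 0.18 on the log2 scale (edgeR, adjusted p = 0.000113), was the largest of the 8 enzymes and rested on 34 to 52 counts per mutant sample, against 132 to 149 per wild-type sample.

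**Figure D2:**
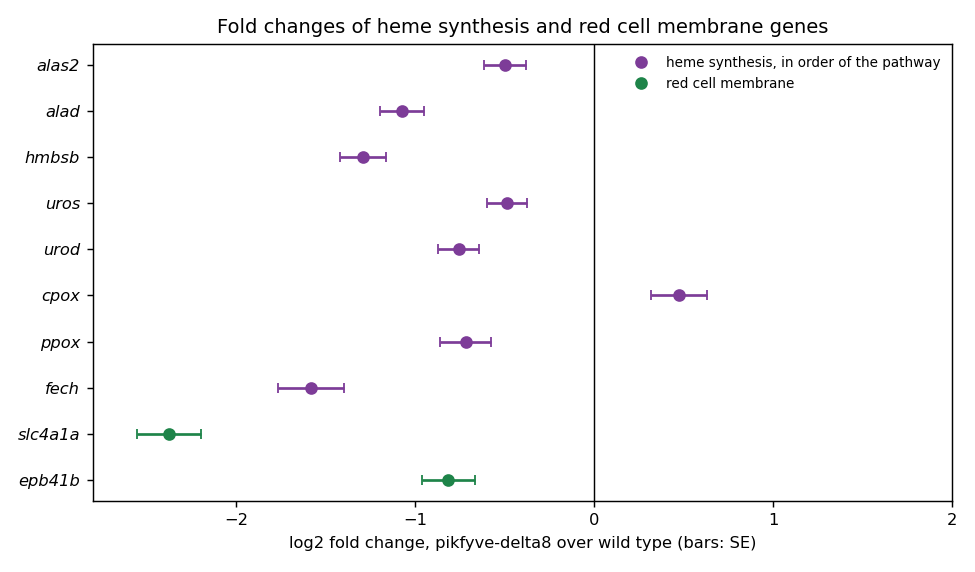
Log2 fold change (pikfyve-delta8 over wild type, edgeR) of the 8 heme synthesis genes in the order of the pathway from top to bottom, then of the 2 membrane genes, with bars for the SE. All points but that of cpox, at 0.47, lie left of 0, and slc4a1a at -2.37 lies furthest left.

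The 8 enzymes did not move by the same amount. To set each gene against the rest, its FPKM (reads scaled to transcript length and depth) was divided in every sample by the geometric mean of the other heme enzymes, a comparison chosen after the data were seen. An exact two-sided permutation test over 3 against 3 samples cannot give a p below 0.10, so none of these 10 ratios could pass the threshold. The fech ratio was lower in the mutants by 1.1 on the log2 scale and the hmbsb ratio by 0.61, and for both every mutant sample lay below every wild-type sample (exact permutation p = 0.10, adjusted p = 0.143 over the 10 ratios). The cpox ratio was higher by 1.39, with log2 ratios of 2.00, 1.78 and 1.5 in the mutants, against 0.50, 0.28 and 0.34 in wild type (exact permutation p = 0.10). The difference for cpox lay between 1.27 and 1.52 when any sample was left out. All 7 other heme enzymes were called lower, so this ratio holds their fall as well. The edgeR log2 fold change of cpox alone was 0.47, and that call depended on the samples, the scaling and the unit used. The ratios of alas2 and uros were higher in every mutant sample, by 0.30 and 0.32, and that of alad was lower in every mutant sample, by 0.36 (exact permutation p = 0.10 each). For alas2 the separation was very narrow, with 0.2752 in the lowest mutant sample and 0.274 in the highest wild-type sample. For urod and ppox the ratios overlapped between genotypes, with differences of 0.013 and 0.050.

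The order of the levels per transcript length also differed between genotypes. In the mutants cpox was the highest of the 10 at 15.5 ± 3.13 FPKM, followed by urod at 10.1 ± 0.493 FPKM (SD, n = 3 each). Then came uros, alas2 and alad, at 7.16, 6.98 and 6.69 FPKM, whose neighbouring ranges overlapped. The mutant level of slc4a1a, 4.81 ± 1.09 FPKM, stood sixth, and hmbsb, ppox, fech and epb41b followed at 2.68 to 1.5 FPKM with overlapping ranges between neighbours. In wild type slc4a1a was the highest at 27.7 ± 3.19 FPKM, followed by urod at 18.9 ± 1.87 FPKM and alad at 15.6 ± 0.845 FPKM (SD, n = 3 each). The wild-type ranges of cpox, uros and alas2, at 12.4, 11.1 and 10.9 FPKM, overlapped between neighbours. The lowest of the 10 was epb41b in both genotypes, at 1.5 ± 0.174 FPKM in the mutants and 2.92 ± 0.261 FPKM in wild type (SD, n = 3 each).

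Both membrane genes fell. Band 3, the anion exchanger that swaps bicarbonate for chloride and anchors the membrane skeleton, is encoded by slc4a1a (NCBI Gene ID 84703). Its transcripts were at 15.7, 20.7 and 12.3 CPM in the mutants, against 75.4, 96.7 and 80.4 CPM in wild type. The highest mutant sample held far less than the lowest wild-type sample. The log2 fold change was -2.37 ± 0.18 (edgeR, adjusted p = 2.54e-05), and it lay between -2.59 and -2.22 in the alternatives. Against the geometric mean of the heme enzymes slc4a1a was lower by 1.63 on the log2 scale, with no overlap between genotypes (exact permutation p = 0.10). Protein 4.1, which joins spectrin and actin to the membrane, is encoded by epb41b. It had 8.04, 8.37 and 6.23 CPM in the mutants, against 11.7, 14.3 and 13.8 CPM in wild type, with a log2 fold change of -0.81 ± 0.15 (edgeR, adjusted p = 0.00139). Its ratio to the heme enzymes differed by only -0.053 and overlapped between genotypes (exact permutation p = 0.60).

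Each of alas2, hmbsb, slc4a1a and epb41b has a relative in the zebrafish genome. In 3 of the 4 pairs the gene and its relative were called in opposite directions or only the gene was called, and in the epb41 pair both fell. The housekeeping form of the entry enzyme, alas1, stood at 779, 867 and 645 CPM in the mutants, against 229, 254 and 221 CPM in wild type. Every mutant sample held far more alas1 than any wild-type sample, and the log2 fold change was 1.70 ± 0.11 (edgeR, adjusted p = 5.01e-06), opposite in sign to that of alas2. On the FPKM scale alas2 made up 1.88%, 1.34% and 1.85% of the pair in the mutants, against 7.09%, 7.28% and 7.34% in wild type. The sum of both was 371 to 459 FPKM in the mutants and 142 to 160 FPKM in wild type, so transcripts of the entry step were more abundant in the mutants as a whole.

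The relative of hmbsb, hmbsa, had 21.8, 19.4 and 21.2 CPM in the mutants, against 14.2, 16.4 and 17.5 CPM in wild type. Its log2 fold change was 0.37 ± 0.11 (edgeR, adjusted p = 0.0180). The call was lost with library size alone (adjusted p = 0.118), without wild type replicate 1 (0.0874) or replicate 2 (0.0537), and on the FPKM scale (0.127), within a range of 0.0153 to 0.127 over all alternatives. As a share of the pair's FPKM, hmbsb was 21.7%, 19.8% and 18.9% in the mutants, against 45.9%, 43.0% and 43.9% in wild type. The sum of both was 12 to 14.0 FPKM in the mutants and 15.3 to 17.8 FPKM in wild type, lower in every mutant sample, unlike the sum at the entry step.

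The relative of slc4a1a, slc4a1b, had 10.1, 8.95 and 8.63 CPM in the mutants, against 7.56, 8.75 and 8.84 CPM in wild type, and did not pass the test (log2 fold change 0.14 ± 0.13, edgeR adjusted p = 0.403). The samples of the genotypes overlapped, and the sign turned with library size alone (-0.0039) and on the FPKM scale (-0.0084 and -0.010). The share of slc4a1a in the pair's FPKM was 56.5%, 65.8% and 54.5% in the mutants, against 89.3%, 90.2% and 88.2% in wild type. For epb41a, the relative of epb41b that is also used outside red cells, the values were 103, 86.4 and 102 CPM in the mutants, against 124, 112 and 119 CPM in wild type. Its log2 fold change was -0.28 ± 0.09 (edgeR, adjusted p = 0.0214). That call was lost when replicate 1 (adjusted p = 0.0921) or replicate 3 (0.0700) of wild type or replicate 2 of the mutants (0.0520) was removed, and adjusted p spanned 0.00634 to 0.0921 over all alternatives.

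The ratios within the pairs were tested over samples. The log2 ratio of alas2 to alas1 was -5.88 ± 0.28 in the mutants and -3.68 ± 0.029 in wild type (SD, n = 3 each), a difference of -2.20 (exact permutation p = 0.10, the smallest that 3 against 3 samples allow, and 0.133 adjusted over 4 pairs). The same p held for hmbsb over hmbsa, which differed by -1.66, and for slc4a1a over slc4a1b, which differed by -2.53. In these 3 pairs every mutant sample lay below every wild-type sample. The ratio of epb41b to epb41a differed by -0.53, and its samples overlapped (exact permutation p = 0.20).

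**Figure D3:**
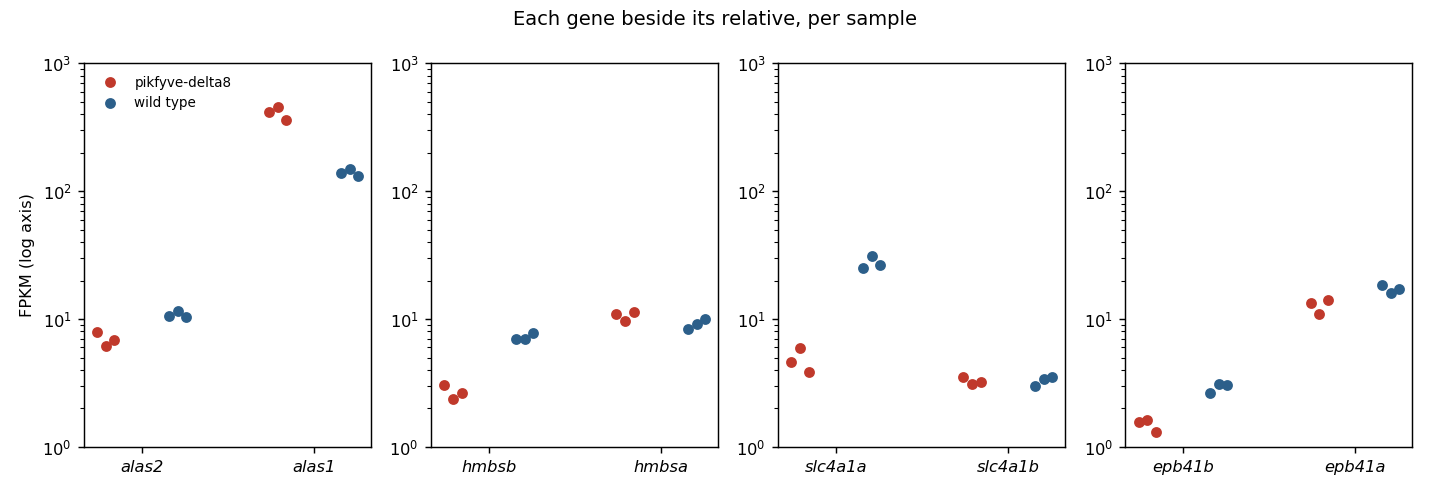
FPKM (log axis) of alas2, hmbsb, slc4a1a and epb41b, each beside its relative, in 3 pikfyve-delta8 and 3 wild-type samples (1 point per sample). Points of alas1 sit at 364 to 453 FPKM in the mutants and 131 to 148 FPKM in wild type, opposite to alas2, while those of slc4a1b overlap at 3.02 to 3.55 FPKM.

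Other genes that supply, regulate or break down heme were called higher more often than lower after TMM scaling. On the FPKM scale 9 were higher and 8 lower, and 6 were lower with upper-quartile scaling or with library size alone. Of 33 tested genes in that list, which holds alas1 and hmbsa, 14 rose, 2 fell and 17 did not pass after TMM scaling, and the median was 0.18. Over all tested genes, 25.1% rose and 23.0% fell. The gene slc25a38a, whose product brings glycine into the mitochondrion for the entry step, had 10.3, 14.6 and 13.4 CPM in the mutants, against 1.91, 2.27 and 2.75 CPM in wild type. Its log2 fold change was 2.46 ± 0.19 (edgeR, adjusted p = 1.20e-05), or 1.86 as log2(FPKM + 1). Its relative slc25a38b rose by 0.77 ± 0.12 on the log2 scale. The chaperone gene clpxa, whose mammalian counterpart acts on 5-aminolevulinate synthase, rose by 0.59 ± 0.08, and snx3, which helps return transferrin receptors to the cell surface, by 0.71 ± 0.07. The heme oxygenase gene hmox1a, of heme breakdown, had 44.2, 34.3 and 63.6 CPM in the mutants, against 23.3, 25.4 and 26.6 CPM in wild type (log2 fold change 0.92 ± 0.21, edgeR adjusted p = 0.00751).

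The 2 genes of that list that fell were abcb6a, a relative of a mammalian porphyrin transporter, and slc25a39, a mitochondrial carrier. Their log2 fold changes were -0.69 ± 0.12 and -0.40 ± 0.09 (edgeR, adjusted p = 0.00142 and 0.00387). The count of lower genes in the list was 5 when replicate 1 of the mutants was removed, 4 when their replicate 3 was removed and 8 on the FPKM scale, where 9 were higher. The iron importer gene slc25a37 (mitoferrin 1), which red cells need, was low, at 1.36, 1.6 and 0.685 CPM in the mutants and 1.27, 1.04 and 0.897 CPM in wild type, where 3 counts correspond to 0.191 to 0.218 CPM. It did not pass the test (edgeR, adjusted p = 0.703), and its log2 fold change of 0.18 was -0.068 without pikfyve-delta8 replicate 2.

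The list of membrane and skeleton genes outside the pair described above had no common direction. It was not limited to genes of red cells alone and holds, for instance, epb41a. Of 28 tested, 8 rose, 6 fell and 14 did not pass, with a median of 0.075, and 4 rose on the FPKM scale. These shares are close to those over all tested genes, 25.1% higher and 23.0% lower. The red cell spectrin gene sptb fell to 39.6, 39.5 and 43.6 CPM in the mutants, against 60.9, 60.2 and 60.8 CPM in wild type (log2 fold change -0.57 ± 0.07, edgeR adjusted p = 0.000195). Of the ankyrin genes, whose products link spectrin to band 3, ank1b fell by 1.23 on the log2 scale (edgeR, adjusted p = 0.00107), whereas ank1a had 32.0 ± 1.79 CPM in the mutants and 30.9 ± 1.67 CPM in wild type (SD, n = 3 each). The log2 fold change of ank1a, 0.049, turned to -0.015 with upper-quartile scaling and to -0.093 with library size alone. The adducin genes add3b and add2 fell by 1.19 and 0.66 on the log2 scale, and mpp1, which encodes a scaffold protein known from red cells, rose by 0.98. The estimated counts of mpp1 held fractions, which leaves its level uncertain. With whole counts in every sample, tspan33a rose by 0.97 and aqp1a.1 by 0.77 (edgeR, adjusted p = 0.000141 and 0.000148). Transcripts of rhag, at 112 ± 10.8 CPM in the mutants and 105 ± 3.31 CPM in wild type (SD, n = 3 each), did not pass (edgeR, adjusted p = 0.339).

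Regulators of red cell genes moved in both directions. Of 19 tested, 6 fell, 4 rose and 9 did not pass, with a median of -0.30, where 23.0% of all tested genes fell and 25.1% rose. The count of higher genes was 1 without wild type replicate 1, 0 without wild type replicate 2, 2 without wild type replicate 3 and 2 when replicate 2 of the mutants was removed. The erythroid transcription factor gene gata1a had 1.44, 1.97 and 0.959 CPM in the mutants, against 3.49, 4.73 and 4.42 CPM in wild type. Its log2 fold change was -1.54 ± 0.27 (edgeR, adjusted p = 0.00116). The gene klf1, which encodes another erythroid transcription factor, stood at 1.36, 0.874 and 1.16 CPM in the mutants, against 2.22, 3.04 and 2.82 CPM in wild type. It fell by 1.24 on the log2 scale (edgeR, adjusted p = 0.00341), or by 0.60 as log2(FPKM + 1). Both genes were low, and for each the mutants lay below wild type in all 3 samples. The genes hemgn and tal1 fell by 0.80 and 0.69 on the log2 scale. The genes that rose were nfe2, by 0.68, lmo2 by 0.53, klf3 by 0.43 and fam210b by 0.33, of which nfe2 was named after its values were seen. Over 16 alternatives the call was kept under 7 for klf3, 11 for fam210b and 12 for lmo2. The lower calls of gata1a, klf1, hemgn and tal1 were kept under all 16. With any sample left out, 6 to 7 regulators were lower. The klf3 samples overlapped between genotypes.

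Among 10 tested globin genes 3 fell, 2 rose and 5 did not pass, shares near those of all tested genes (23.0% lower and 25.1% higher). Of 16 globin genes listed, 12 were found, and hbbe3 and hbaa1 were too low to test. The listed genes hbaa2, hbba1, hbba2 and hbba1.1 were not found, so the sum does not cover them. The summed level of the 12 was 885 to 1334 CPM in the mutants and 1882 to 2232 CPM in wild type. Most of that difference lay in 3 genes. Mean levels in mutants and wild type were 220 and 603 CPM for hbae1.2, 50.2 and 393 for hbbe1.2, and 50.5 and 188 for hbbe1.3. They were 346 and 361 CPM for hbbe1.1, 241 and 308 for hbae3, and 114 and 107 for hbbe2. The embryonic genes hbbe1.2, hbbe1.3 and hbae1.2 fell by 2.97, 1.89 and 1.45 on the log2 scale, and hbae1.1 rose by 2.04 (edgeR, adjusted p = 0.0168), a call lost when wild type replicate 3 (0.0612) or pikfyve-delta8 replicate 3 (0.0619) was removed, within a span of 0.000145 to 0.0619. The estimated counts of these 4 genes held fractions in all 6 samples, and their levels are uncertain. With whole counts in every sample, hbae3 (-0.35), hbbe2 (0.094) and the low hbae4 (-0.48) did not pass (edgeR, adjusted p = 0.133, 0.555 and 0.354). Nor did hbbe1.1 (-0.063) and hbae1.3 (0.035), whose counts held fractions. The low gene hbae5, with whole counts, rose by 1.91. Of 15 tested genes of red cell enzymes and iron uptake 6 fell, 4 rose and 5 did not pass, beside the same shares of all genes. The red cell carbonic anhydrase gene cahz had 35.5, 25.6 and 32.6 CPM in the mutants, against 50.1, 49.7 and 48.8 CPM in wild type (log2 fold change -0.67 ± 0.11, edgeR adjusted p = 0.000905). The transferrin receptor genes moved apart. The gene tfr1a, used by zebrafish red cells, fell by 0.75 ± 0.09, and the more widely used tfr1b rose by 0.78 ± 0.10 on the log2 scale (edgeR, adjusted p = 0.000104 and 0.000169). A further receptor gene, tfr2, named outside the rule given below, was low but rose by 1.85 ± 0.23 (edgeR, adjusted p = 0.000157). It had 5.25 ± 1.14 CPM in the mutants and 1.45 ± 0.150 CPM in wild type (SD, n = 3 each).

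Markers of other blood and vessel cells are given beside the shares of all tested genes, 25.1% higher and 23.0% lower. Of 12 neutrophil genes tested, 11 rose and 0 fell, and their summed level was 3172 to 3790 CPM in the mutants and 1828 to 1972 CPM in wild type. The carboxypeptidase gene cpa5, which is not limited to neutrophils, made up most of that sum, with 2341 to 2452 CPM in the mutants and 1629 to 1773 CPM in wild type. The neutrophil genes mpx, npsn and lyz rose by 3.91, 2.75 and 1.74 on the log2 scale. The low receptor gene csf3r did not pass (log2 fold change 0.66, edgeR adjusted p = 0.156), and its samples overlapped between genotypes. Of 11 macrophage genes 4 rose and 2 fell, with a summed level of 155 to 246 CPM in the mutants and 86.3 to 94.4 CPM in wild type. The number of macrophage genes that rose was 7 without pikfyve-delta8 replicate 1, and 1 fell when any wild-type sample was left out. The 4 that rose, spi1b, spi1a, coro1a and lcp1, are shared with other leukocytes. The gene mpeg1.1 fell by 1.86 and marco by 0.84 on the log2 scale, and mfap4 (-0.32) and csf1ra (0.36) did not pass. The relative of mpeg1.1, mpeg1.2, did not pass either (log2 fold change 1.53, edgeR adjusted p = 0.0525), though every mutant sample lay above wild type. Estimated counts of spi1b, lcp1 and mfap4 held fractions in all 6 samples, those of spi1a in 5 and those of csf1ra in 3. Of 7 genes of thrombocytes, cells that share regulators with red cells, 4 rose and 0 fell (1400 to 2300 CPM in the mutants and 698 to 756 CPM in wild type), and 2 more were too low to test. The 4 that rose, thbs1b, fli1a, fn1b and f5, are used by other cells as well, and fn1b made up most of the sum in the mutants, with 947 to 1779 CPM there and 393 to 446 CPM in wild type. The platelet receptor genes itga2b (0.67), itgb3b (0.15) and gp1bb (-0.17) did not pass (edgeR, adjusted p = 0.0790, 0.678 and 0.628). Every mutant sample lay above wild type for itga2b, though on only 11 to 19 counts per sample, and the samples of itgb3b and gp1bb overlapped. Genes of these 3 lists were in part named after their values were seen. Of 12 endothelial genes 9 rose and 0 fell (293 to 296 CPM in the mutants and 189 to 194 CPM in wild type). The other 3, named after their values were seen, were cdh5 (0.064), tek (0.016) and lyve1b (0.026). They did not pass (edgeR, adjusted p = 0.725, 0.917 and 0.943), and their samples overlapped between genotypes. No marker on these lists was at 0 in all samples, and their part in the values of the heme and membrane genes was not tested.

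**Figure D4:**
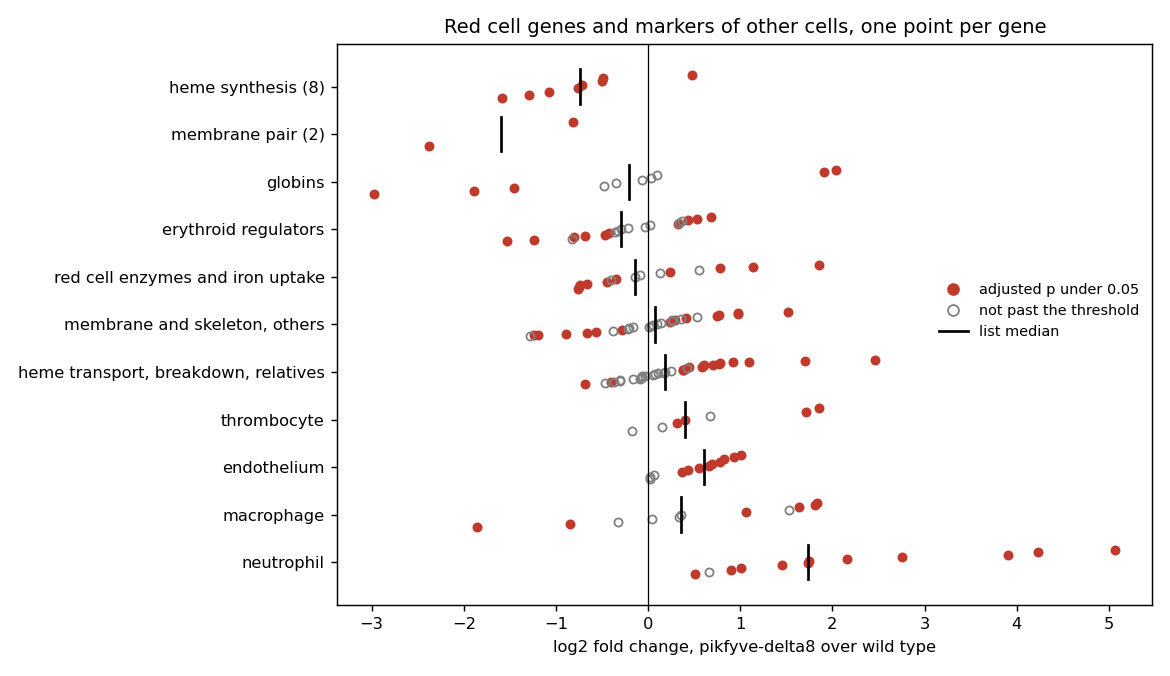
Log2 fold change (pikfyve-delta8 over wild type, edgeR) of each tested gene in the heme synthesis and membrane groups, in lists of other red cell genes and in lists of markers of other cells. Filled points have an adjusted p under 0.05 and black lines are list medians. The heme synthesis median is -0.74, the median of other heme genes is 0.18 and that of neutrophil genes is 1.74.

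The genes with the nearest profiles were sought for alas2, slc4a1a, epb41b and urod, by the root mean square distance of log2 CPM, centred on wild type, over 6 samples and among 16560 other genes averaging at least 50 counts. Genes known only by a clone or locus name were skipped, 2 for alas2, 1 each for slc4a1a and urod and 0 for epb41b. The nearest of the rest to alas2 were me3, usp39, gstk1, acta1b and lsm3 (distance 0.034 to 0.046). For slc4a1a they were gnat1, cnga3a, lgals3bp.1, rcvrna and opn1sw1, at larger distances of 0.141 to 0.228, and 4 of these 5 are genes of photoreceptor cells. Nearest to epb41b were rcc1l, foxm1, ncapg2, rbp3 and cbr1l (0.040 to 0.071), and to urod xdh, gatad1, mllt11, cdc42ep3 and herc1 (0.060 to 0.072). None of the 20 is on the lists of red cell genes. With 48.0% of genes called, many genes share such a profile, and the distance is a description only.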

How the data were processed

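RNA of 6 samples was purified with a Qiagen kit, and mRNA was fragmented, amplified as cDNA and circularized for sequencing, per the labels' protocols. The sources used here do not give the use of strand, so antisense overlaps are not resolved. Bowtie2, RSEM 1.3.1, DESeq2 1.4.5 and the build GRCz11 are named per the submitters' processing notes, with no settings. The deposited estimated counts (10.7% to 11.6% not whole in a sample, tolerance 0.005) and the deposited FPKM values were used. No column belonged to another sample.

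Rounded counts entered edgeR 4.0.16 (R 4.3.3, filterByExpr, TMM, robust quasi-likelihood F-test on genotype, two-sided, Benjamini-Hochberg adjustment). Each SE was taken as |log2 fold change| over the root of F. Samples held 14677252 to 14949605 estimated counts in total, and floors of 3 counts cover counting error only. Between samples the mean chi-square per gene was 11.4 to 18.9 within mutants and 2.32 to 2.79 within wild type, so no sample was a copy of another. The 10 genes, the lists and the rule for named genes (the 10, their relatives, fixed red cell genes, up to 3 genes per list and direction by p, and nearest profiles) were chosen with earlier results of these data known. Genes named outside that rule, such as tfr2, hbae5, rhag and nfe2, were not followed singly through the alternatives. In simulated counts for the comparison of pikfyve-delta8 with wild type (20871 genes), 94% of 50 genes lowered to 0.5 and 98% of 50 genes raised 2-fold were recovered, and 19 of 20671 unchanged genes were called. Those 19 stood beside 50, 47, 49 and 48 correct calls at folds of 0.25, 0.5, 2 and 4. Far fewer genes changed there than the 48.0% called in the data, and both genotypes were given the same dispersion. The simulation therefore cannot check the TMM scaling or the error rate in these data, nor changes smaller than 2-fold. Alternatives were other scalings and filters, a block for replicate number, leaving out each sample, DESeq2 1.42.0, limma 3.58.1 (voom, and log2(FPKM + 1) or log2(FPKM + 0.1) where FPKM reached 1 in 3 or more samples), and ratios to other heme enzymes were chosen with the data in view. The promoter description planned was not made, and sequences were not used here. Same-numbered samples did not deviate together. RefSeq gene names (92.5% of identifiers matched) served to find renamed genes, and none of the 10 genes is on the chromosome of pikfyve there. Figures were drawn with matplotlib 3.10.9.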

Additional observations from a re-analysis of the deposited data

How the results depend on the processing

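The count of 9 lower genes among the 10 and of 4138 to 5484 higher and 3624 to 5498 lower genes in all held within 1.5 times when any sample was left out. With library size alone 3824 genes were higher and 6561 lower, against 5295 and 4845 with TMM, and the median of all genes moved to -0.14. With the FPKM scale it moved to -0.12 and -0.14. The replicate number as a block gave 9 lower and 1 higher of the 10 genes, and 4967 higher and 4608 lower genes in all, with correlations of same-numbered deviations from -0.066 to 0.041. The labels do not say that numbers pair samples. The count of 1 higher gene, cpox, was 0 with library size alone and on both FPKM scales, and 0 to 1 when a sample was left out. Among the lists, higher erythroid regulators numbered 0 with library size alone, 1 on both FPKM scales and 0 to 5 with a sample left out. Higher genes of heme transport and breakdown numbered 9 on both FPKM scales. Lower ones numbered 4 with DESeq2 size factors, 6 with upper-quartile scaling, 6 with library size alone, 4 with limma-voom, 8 on both FPKM scales and 2 to 5 with a sample left out. Higher membrane and skeleton genes numbered 4 on both FPKM scales. Higher stem and progenitor genes numbered 1 with library size alone and on both FPKM scales, and 1 to 2 with a sample left out, while lower ones numbered 4 with upper-quartile scaling, library size alone and both FPKM scales. With a sample left out, higher globins numbered 1 to 2, lower hepatocyte genes 2 to 5, higher macrophage genes 4 to 7 and lower ones 1 to 3. The cause was not tested. Ratios to the other heme enzymes that were near 0 changed sign when a sample was left out, at -0.127 to 0.012 for epb41b, -0.092 to 0.175 for ppox and -0.040 to 0.102 for urod, and urod stood at -0.0032 on CPM. Among 1470 alternatives for 92 named genes, 1407 kept direction and call, 57 lost the call and 6 changed sign (slc4a1b at -0.0039, -0.0084 and -0.010, ank1a at -0.015 and -0.093, slc25a37 at -0.068 to 0.46 with a sample left out). Depth limits low genes such as slc25a37, klf1 and gata1a.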

Other observations

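Genes of the liver, another site of heme synthesis, gave no common direction. Of 12 hepatocyte genes tested, 4 rose, 4 fell and 4 did not pass, and 2 fell when any wild-type sample was left out. Over all tested genes, 25.1% were higher and 23.0% lower. The fibrinogen genes fga, fgb and fgg rose by 1.4, 1.49 and 1.45 on the log2 scale, whereas apoba, which encodes the main protein of lipoprotein particles, fell by 0.98. The gene hpxa, which encodes a hemopexin that binds free heme in plasma, stood at 1.58 ± 0.955 CPM in the mutants and 16.3 ± 3.01 CPM in wild type (SD, n = 3 each). The summed hepatocyte level was 7289 to 7693 CPM in the mutants and 6914 to 7206 CPM in wild type.

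Among 10 genes of blood stem and progenitor cells 2 rose, 2 fell and 6 did not pass, shares near those of all tested genes (25.1% higher and 23.0% lower). The transcription factor gene runx1, which marks emerging stem cells, had 4.89 ± 1.04 CPM in the mutants and 2.18 ± 0.243 CPM in wild type (SD, n = 3 each), a log2 fold change of 1.16 ± 0.22 (edgeR, adjusted p = 0.00180). The gene tal1, which is also on the list of erythroid regulators, fell, and lmo2, on both lists too, rose by 0.53. The edgeR call of lmo2 was lost when replicate 2 of wild type was removed (adjusted p = 0.0579) or library size alone was used (0.0643), within a span of 0.00824 to 0.0643. With limma on log2(FPKM + 1) and log2(FPKM + 0.1) it did not pass either (adjusted p = 0.0517 and 0.0523).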
